A study of Danio rerio with 9 samples.

Results

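Rab proteins are small GTPases that sit on membranes and set where vesicles form, move and fuse. Each switches between a GDP-bound form held in the cytosol and a GTP-bound form that recruits effectors on a particular organelle. In neurons, Rab3 proteins sit on synaptic vesicles, Rab11 proteins on the recycling endosomes that return membrane and receptors to the cell surface, and Rab5 and Rab7 proteins on the early and late endosomes. The genes described here are those whose probe sets the platform annotation gives exactly 1 symbol made of rab and a digit. Names of binding partners were left out, which removed 4 of 40 such symbols (rab3gap1, rab3gap2, rab3ip and rab5if). This left 36 Rab genes, carried by 43 of 15502 probe sets and counted among 8793 named genes. RefSeq lists 74 Rab genes by the same naming rule, so the family was covered in part. All 36 were tested, with no filter on low values.

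The arrays hold RNA of brain neurons that project to the spinal cord of adult zebrafish, sorted by fluorescence after enzymatic dissociation of the brain, with 3 arrays in each of 3 groups. The regenerated and the nonregenerated neurons came from fish with a complete transection of the cord at vertebra 8, made together with placement of the red tracer Fluororuby. Regenerated neurons were those reached by the green tracer Fluoroemerald, placed 4 mm beyond the lesion 3 weeks later, and nonregenerated neurons were those that did not regrow their axons. Sorting followed 1 week after the green tracer. Unlesioned neurons came from fish that received Fluororuby at vertebra 8 without a lesion and were sorted after 1 week, so the time since the first tracer differs between lesioned and unlesioned groups. Strain, sex, exact age and the number of fish behind a sample are not given in the sources used here, nor is whether regenerated and nonregenerated samples share fish. The labels number the 3 samples of each group as biological replicates.

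Each value is a log2 RMA expression value from which the median of its probe set over the 9 arrays has been subtracted. A value of 0 therefore means the middle array for that gene and says nothing of its level, and levels cannot be compared between genes. Because absolute levels are unknown, the presence of neuronal markers could be compared between arrays but not tested in any one of them. The regenerated arrays had a wider spread over probe sets, with an SD of 0.594 to 0.650 against 0.349 to 0.430 in the other 6 arrays. The median of 22 negative control probe sets read 0.48, 0.04 and 0.28 on the regenerated arrays, and lay between -0.16 and 0.08 in the other arrays. In sorted cells, a change in the mix of cells (neuron types or other cell types) and a change in RNA per cell cannot be told apart. Genes were tested with limma across all 8793 genes, and a gene was called where its Benjamini-Hochberg adjusted p was under 0.05.

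**Figure D1:**
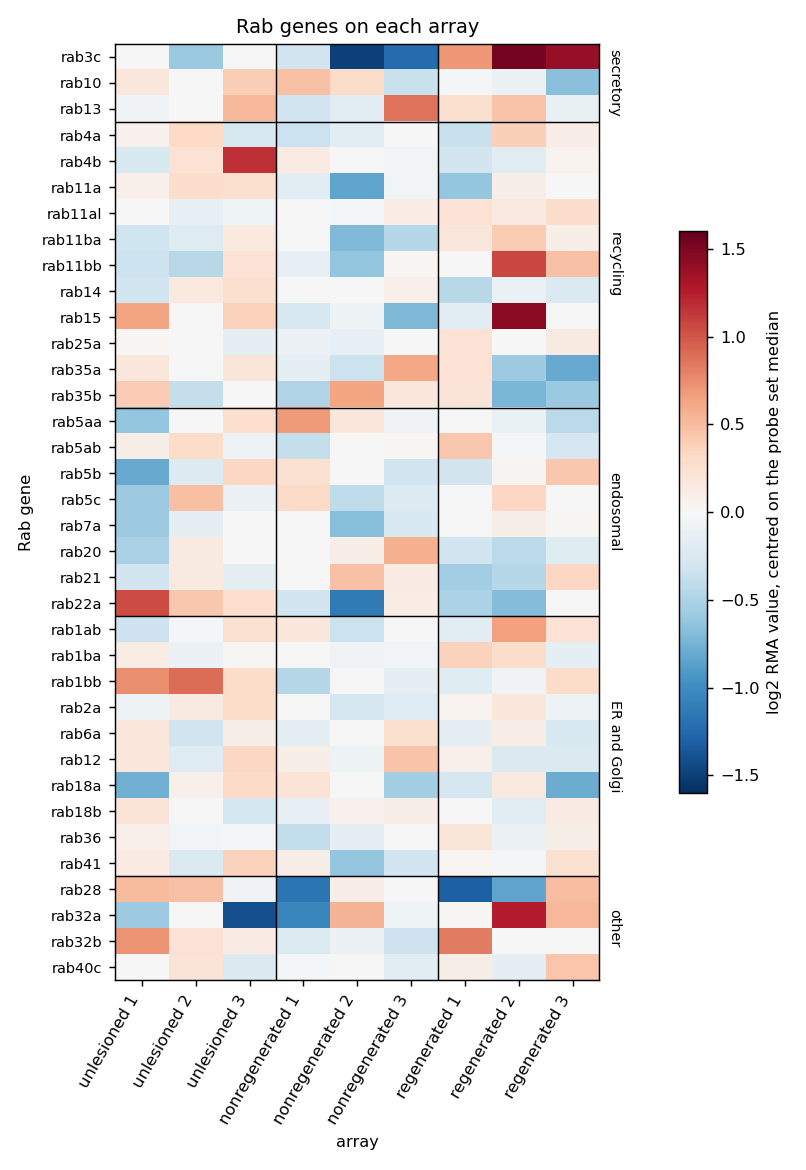
Centred log2 RMA values of the 36 Rab genes (rows, grouped by membrane route) on the 9 arrays (columns, 3 per group), with red above and blue below the gene's median array. rab3c is red in all 3 regenerated arrays and blue in all 3 nonregenerated arrays, and most other rows show no block of colour that follows the groups.

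The annotation named 3 genes of the secretory route, which carries vesicles to the cell surface. Of these, rab3c, a gene of the Rab3 group of synaptic vesicle GTPases, was higher in regenerated than in nonregenerated neurons. Its values were 0.69, 1.53 and 1.40 in regenerated arrays 1, 2 and 3, and -0.30, -1.49 and -1.23 in nonregenerated arrays 1, 2 and 3. Unlesioned arrays read 0.0006, -0.60 and 0. The regenerated arrays thus lay above all 6 others, and the unlesioned and nonregenerated arrays overlapped through nonregenerated array 1. The difference between regenerated and nonregenerated neurons was 2.21 ± 0.35 (SE of the limma model, n = 3 each), or 4.64-fold. Its 95% interval was 1.43 to 3.00 on the log2 scale and its limma adjusted p was 0.0107. This SE, like the others given after ±, pools the spread within all 3 groups and is moderated over genes. By size the rab3c difference was the 75th largest among the 8793 genes in either direction. The call was lost without nonregenerated array 3 (2.10, limma adjusted p = 0.0509), and without nonregenerated array 2 the adjusted p was 0.0481. rab3c rests on 1 probe set, whose identifier carries no suffix for cross-hybridization.

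Against unlesioned neurons rab3c differed by 1.40 ± 0.35 in the regenerated arrays, with a 95% interval of 0.62 to 2.19, and did not pass (limma adjusted p = 0.0838). Nonregenerated minus unlesioned neurons gave -0.81 ± 0.35, also not called (limma adjusted p = 0.900). The comparisons share groups of arrays, so these values are not independent of each other.

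The other secretory genes did not follow rab3c. rab10, whose mammalian relative serves delivery of membrane to the plasma membrane of growing axons, differed by -0.39 ± 0.27 between regenerated and nonregenerated neurons. Its values were -0.01, -0.09 and -0.66 in regenerated arrays, 0.47, 0.29 and -0.36 in nonregenerated arrays and 0.18, 0 and 0.40 in unlesioned arrays. Regenerated arrays overlapped the nonregenerated ones and lay below all 3 unlesioned arrays, at a difference of -0.45 ± 0.27. rab13, known from transport to cell junctions, differed by 0.07 ± 0.33 from nonregenerated and 0.04 ± 0.33 from unlesioned neurons. Neither gene passed the test.

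Several lists of cell type markers also differed between regenerated and nonregenerated arrays, some in the direction of rab3c and some in the other. The neuron list (8 of 12 markers measured) had a per-array median of -0.01 to 0.25 in regenerated, -0.92 to -0.25 in nonregenerated and 0.01 to 0.20 in unlesioned arrays, and 3 of the 8 were called higher in regenerated than in nonregenerated neurons. The Purkinje neuron list (5 of 7 measured) lay at 4.13 to 4.64, at -1.46 to -0.56 and at -0.33 to 1.21 in the same order of groups, with 4 of the 5 called higher. The radial glia list (8 of 10 measured) lay at -1.78 to -0.70, at 0.15 to 0.29 and at -0.33 to 0.29, and the oligodendrocyte list (5 of 8 measured) at -1.96 to -1.63, at 0 to 0.56 and at 0 to 0.79. In each of these glial lists 3 markers were called lower. The erythroid list (4 of 6 measured) lay at -0.06 to 0.89, at -0.89 to -0.73 and at 0.33 to 1.81, and the endothelium list (2 of 6 measured) at 0.22 to 3.29, at -0.23 to -0.12 and at -0.28 to 0.62. The leukocyte and microglia list (10 of 11 measured) lay at 0.04 to 0.11, at -0.00045 to 0.56 and at -0.15 to -0.05. No marker of these last 3 lists was called between regenerated and nonregenerated neurons. Against unlesioned neurons, 1 neuron, 4 Purkinje neuron and 1 leukocyte and microglia marker were called higher in regenerated neurons. Called lower there were 2 radial glia and 3 oligodendrocyte markers, and no erythroid or endothelium marker was called. Which markers are near 0 in absolute level is not known from centred values. The part of these differences in the result for rab3c was not tested.

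**Figure D2:**
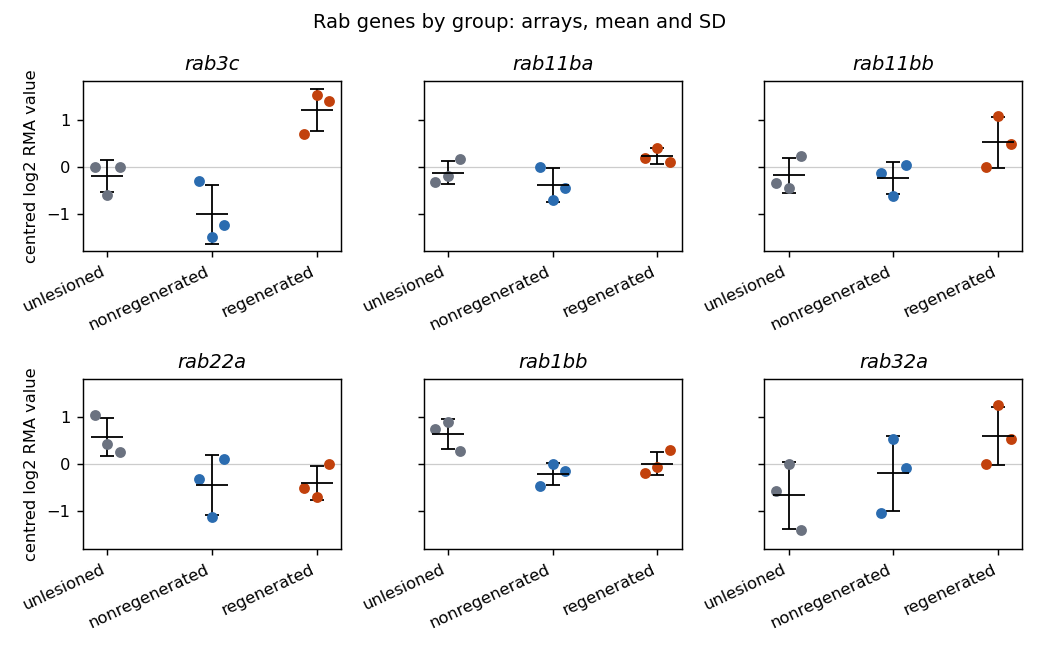
Centred log2 RMA values of rab3c, rab11ba, rab11bb, rab22a, rab1bb and rab32a by group, where points are arrays in the order 1 to 3, the long bar is the mean and the whiskers are the SD (n = 3 each). For rab3c the 3 regenerated points lie between 0.69 and 1.53, above all others; for rab22a and rab1bb the unlesioned means, 0.58 and 0.64, are the highest.

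Among all 36 Rab genes, 1 was called higher in regenerated than in nonregenerated neurons and none lower, or 2.78% of the genes. Over all 8793 genes 2.96% were called in either direction, with 1.25% called higher and 1.71% called lower. An unadjusted p under 0.05 was reached by 4 Rab genes (11.1%), with rab3c, rab11ba and rab11bb higher and rab20 lower, against 16.8% of all genes, 8.32% higher and 8.45% lower. The groups did not overlap in 6 Rab genes (16.7%), against 22.2% of all genes, 12.8% higher and 9.37% lower. Of these, rab3c, rab11ba, rab11al and rab32b were higher and rab14 and rab20 lower in the regenerated arrays. The share of Rab genes with a difference of at least 1 on the log2 scale was 2.78%, against 7.52% of all genes.

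By these shares the measured Rab genes as a group lay close to, or under, all genes in this comparison. Their median difference was 0.19, against 0.06 over all genes. Above 0 were 23 of the 36 Rab genes, against 4867 of all 8793 genes. For the 35 genes other than rab3c the differences ran from -0.54 to 0.79, and 30 of them were smaller than 0.5 in size. All 35 intervals lay within 2 on the log2 scale in either direction, and 24 lay within 1. The median 95% half-width over the 36 genes was 0.59. These are single-gene intervals, not adjusted for the number of genes tested. A call needed a larger difference than they imply. Between regenerated and nonregenerated neurons rab11ba differed by 0.61 (interval 0.10 to 1.13) and rab11bb by 0.75 (interval 0.05 to 1.45), and neither was called. Differences of this size, and smaller ones, could thus go undetected with 3 arrays a group.

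**Figure D3:**
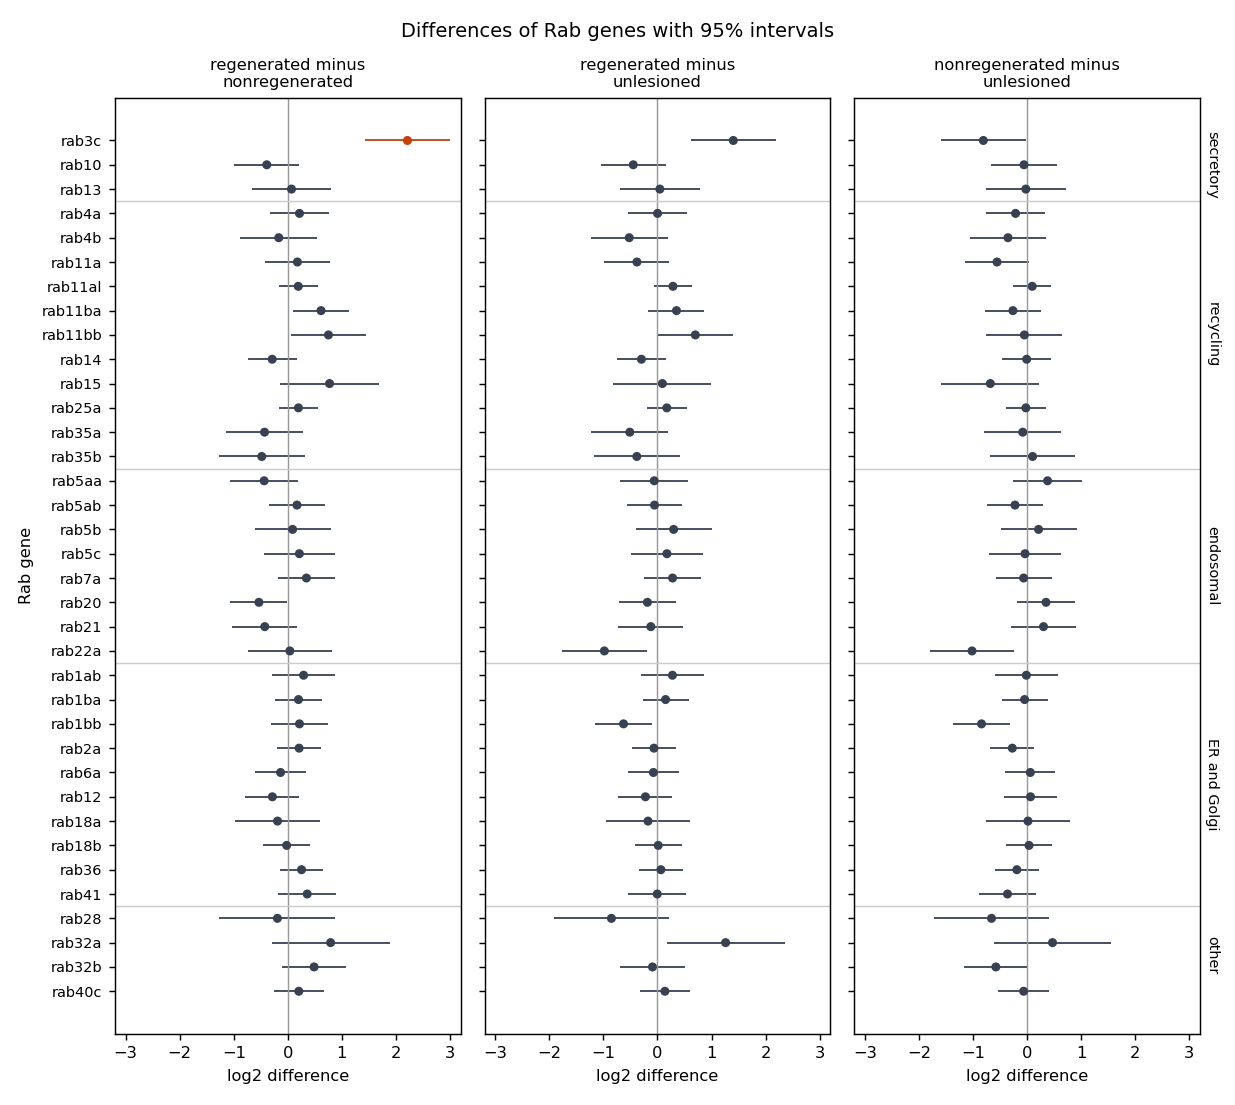
Log2 differences of the 36 Rab genes in each of the 3 comparisons (points) with their 95% intervals from the limma model (lines), grouped by membrane route. rab3c, in orange at 2.21 in the panel of regenerated minus nonregenerated neurons, is the gene that passed the test over all genes; the other intervals in that panel mostly cross 0.

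Genes of recycling endosomes formed the largest class, with 11 measured. Both genes of the Rab11b kind had their mean highest in regenerated neurons, and neither was called. These 2 were chosen for description here after their values were seen. rab11ba read 0.18, 0.40 and 0.09 in regenerated arrays, 0, -0.71 and -0.46 in nonregenerated arrays and -0.32, -0.21 and 0.15 in unlesioned arrays. The regenerated arrays lay above the nonregenerated arrays and overlapped the unlesioned ones. The difference between regenerated and nonregenerated neurons was 0.61 ± 0.23 (limma adjusted p = 0.222).

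rab11bb, its duplicate, read 0, 1.07 and 0.47 in regenerated arrays, -0.13, -0.62 and 0.03 in nonregenerated arrays and -0.35, -0.45 and 0.23 in unlesioned arrays. Its groups overlapped, and regenerated array 2 was the highest. Regenerated neurons differed by 0.75 ± 0.31 from nonregenerated (limma adjusted p = 0.267) and by 0.70 ± 0.31 from unlesioned neurons (limma adjusted p = 0.331). Its 2 probe sets gave 0.63 and 0.88 against nonregenerated neurons. Of the Rab11a kind, rab11a differed by 0.18 ± 0.27 and rab11al by 0.19 ± 0.16 in that comparison.

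rab15, a brain Rab of early and recycling endosomes in mammals, was placed with the recycling genes by its number, though it could be counted with the endosomal ones. It had the largest mean difference of the recycling class between regenerated and nonregenerated neurons, at 0.77 ± 0.40, not called (limma adjusted p = 0.374). Regenerated arrays read -0.19, 1.45 and 0.01, nonregenerated arrays -0.25, -0.08 and -0.72, and unlesioned arrays 0.63, 0 and 0.36. The difference rests on regenerated array 2: without it the value was 0.26. rab35b had the lowest value of the class at -0.48 ± 0.35, with its duplicate rab35a at -0.43 ± 0.32. Rab35 in mammals serves fast recycling at the plasma membrane. In both genes regenerated arrays 2 and 3 were the lowest of the 9 arrays and regenerated array 1 lay above 0. rab14, which links the Golgi and endosomes, differed by -0.29 ± 0.20, and the genes rab4a, rab4b and rab25a lay between -0.17 and 0.22.

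Across the class of recycling genes the median difference was 0.19 against nonregenerated neurons, 0.0013 against unlesioned neurons and -0.08 between nonregenerated and unlesioned neurons. The first kept its sign in each alternative run, with values from 0.05 to 0.24. It was not particular to this class. In the same comparison the median was 0.19 over all 36 Rab genes, 0.20 in the endoplasmic reticulum and Golgi class and 0.06 over all genes. No recycling gene was called in any of the 3 comparisons.

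Endosomal genes, 8 in number, were spread around 0. The early endosome genes rab5aa, rab5ab, rab5b and rab5c differed by -0.44, 0.17, 0.09 and 0.21 between regenerated and nonregenerated neurons, with SE from 0.23 to 0.31. rab7a, the GTPase of late endosomes and lysosomes and of retrograde transport in axons, differed by 0.34 ± 0.23, the highest value of the class. Its values were 0, 0.09 and 0.02 in regenerated arrays, 0.01, -0.68 and -0.24 in nonregenerated arrays and -0.58, -0.15 and 0.01 in unlesioned arrays. The 3 regenerated values were closer together than those of the other groups, and they overlapped both.

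rab20, known from endosomes and phagosomes in mammals, had the lowest value of the class at -0.54 ± 0.24 (limma adjusted p = 0.292). It read -0.31, -0.42 and -0.19 in regenerated arrays, 0, 0.11 and 0.57 in nonregenerated arrays and -0.52, 0.15 and 0.01 in unlesioned arrays. The regenerated arrays lay below the nonregenerated arrays without overlap. rab21, of early endosomes, differed by -0.43 ± 0.27, with overlap.

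rab22a, an early endosome GTPase related to Rab5, stood apart in the unlesioned group. It read 1.04, 0.44 and 0.27 in unlesioned arrays, -0.30, -1.13 and 0.12 in nonregenerated arrays and -0.50, -0.70 and 0 in regenerated arrays. All 6 arrays of lesioned fish lay below the 3 unlesioned arrays. The differences from unlesioned neurons were -0.98 ± 0.35 for regenerated (limma adjusted p = 0.214) and -1.02 ± 0.35 for nonregenerated neurons (limma adjusted p = 0.802), and neither was called. Both values rest on the same 3 unlesioned arrays. The median of the class differed by 0.06 between regenerated and nonregenerated neurons, by -0.06 between regenerated and unlesioned and by 0.09 between nonregenerated and unlesioned neurons, and each of these changed sign under some alternatives. In unlesioned array 1 the class median was -0.55, against 0.14 and 0.01 in the other unlesioned arrays, and without that array the last value was -0.15.

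**Figure D4:**
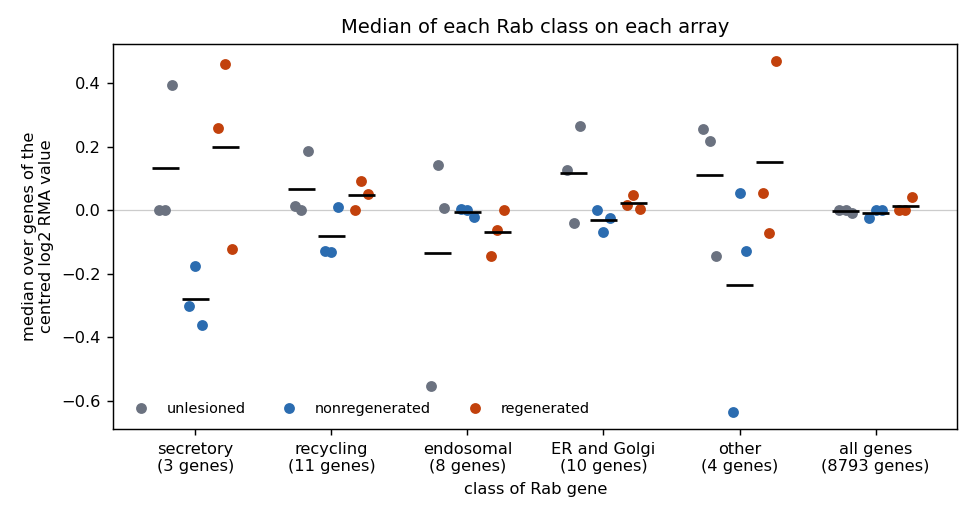
Median over the genes of each Rab class of the centred log2 RMA value on each array (points, coloured by group) with the mean of 3 arrays (bars), beside the same over all 8793 genes. The median of the 11 recycling genes lies between -0.13 and 0.19 on every array. The widest scatter is in the classes of 3 and 4 genes and in unlesioned array 1 for the endosomal genes.

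Genes of the endoplasmic reticulum and Golgi numbered 10. Between regenerated and nonregenerated neurons their differences ran from -0.29 for rab12 to 0.36 for rab41, with a median of 0.20, and none reached an unadjusted p under 0.05. rab1 and rab2 proteins carry traffic between the endoplasmic reticulum and the Golgi, and rab6 proteins act at the Golgi. rab1ab, rab1ba, rab1bb and rab2a differed by 0.29, 0.20, 0.22 and 0.21, and rab6a by -0.13 ± 0.21. rab18a and rab18b, of the endoplasmic reticulum and lipid droplets, differed by -0.19 and -0.02, and rab36, a Golgi GTPase in mammals, by 0.25. rab12 was placed here by its number and is also known from recycling endosomes. Its value joins 2 probe sets that disagreed, at -0.73 and 0.16.

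rab1bb was the member of this class with the lowest values against unlesioned neurons. It read 0.75, 0.90 and 0.29 in unlesioned arrays, -0.46, 0 and -0.14 in nonregenerated arrays and -0.19, -0.05 and 0.29 in regenerated arrays. The nonregenerated arrays lay below all unlesioned arrays, and regenerated array 3 overlapped the lowest of them. The differences were -0.84 ± 0.23 for nonregenerated (limma adjusted p = 0.732) and -0.63 ± 0.23 for regenerated neurons (limma adjusted p = 0.232). Its duplicate rab1ba differed by -0.05 ± 0.19 and 0.15 ± 0.19 in the same comparisons.

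The 4 remaining genes act at cilia, at lysosome-related organelles or with ubiquitin ligases. rab32a, whose mammalian relative serves melanosomes and related organelles, read 0.02, 1.26 and 0.53 in regenerated arrays, -1.04, 0.54 and -0.08 in nonregenerated arrays and -0.58, 0 and -1.41 in unlesioned arrays. Regenerated arrays lay just above the unlesioned ones and overlapped the nonregenerated ones. It differed by 1.26 ± 0.49 from unlesioned neurons (limma adjusted p = 0.255) and by 0.79 ± 0.49 from nonregenerated neurons (limma adjusted p = 0.446). Its duplicate rab32b differed by -0.09 ± 0.27 and 0.49 ± 0.27.

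rab28, known from cilia and photoreceptors, had the widest spread within the regenerated group among these 36 genes, with -1.31, -0.84 and 0.49, and differed by -0.19 ± 0.48 from nonregenerated and -0.85 ± 0.48 from unlesioned neurons. The first of these values changed sign in 3 of 21 alternatives. rab40c, which carries a domain for ubiquitin ligase binding, differed by 0.20 ± 0.21 and 0.14 ± 0.21.

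Against unlesioned neurons no Rab gene was called in the regenerated group, where 2.26% of all genes were, 0.910% higher and 1.35% lower. An unadjusted p under 0.05 was reached by 4 Rab genes (11.1%), rab3c and rab32a above and rab22a and rab1bb below unlesioned neurons, against 15.1% of all genes, 6.95% higher and 8.19% lower. The groups did not overlap in 5 (13.9%), against 20.1% of all genes, 11.0% higher and 9.03% lower, with rab3c, rab11al and rab32a higher and rab10 and rab22a lower. The 36 differences had a median of -0.03, where that of all genes was 0.06, and ran from -0.98 for rab22a to 1.40 for rab3c. By class, the other extremes were -0.45 for rab10 among secretory genes, -0.52 for rab4b and 0.70 for rab11bb among recycling genes and 0.30 for rab5b among endosomal genes. In the endoplasmic reticulum and Golgi class they were -0.63 for rab1bb and 0.28 for rab1ab, and among the remaining genes -0.85 for rab28 and 1.26 for rab32a.

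Between nonregenerated and unlesioned neurons no Rab gene was called, and 0% of all 8793 genes were called by limma. An unadjusted p under 0.05 was reached by 3 Rab genes (8.33%), rab1bb, rab22a and rab3c, each lower in nonregenerated neurons, against 5.39% of all genes, 2.80% higher and 2.59% lower. The groups did not overlap in 5 Rab genes (13.9%), which were rab1bb, rab11a, rab15, rab22a and rab32b. All 5 were lower in nonregenerated neurons, against 11.8% of all genes, 5.87% higher and 5.93% lower. Of the 36 differences, 25 were below 0, where 4590 of all 8793 genes were, with a median of -0.06 against -0.01 over all genes. Secretory genes ran from -0.81 for rab3c to -0.02 for rab13, recycling genes from -0.68 for rab15 to 0.10 for rab35b and endosomal genes from -1.02 for rab22a to 0.38 for rab5aa. Genes of the endoplasmic reticulum and Golgi ran from -0.84 for rab1bb to 0.06 for rab12, and the remaining genes from -0.66 for rab28 to 0.47 for rab32a. rab35b and rab12 changed sign here when single arrays were left out.

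Zebrafish keep 2 genes for several mammalian Rabs, and 6 such duplicate pairs were measured here (rab1ba and rab1bb, rab5aa and rab5ab, rab11ba and rab11bb, rab18a and rab18b, rab32a and rab32b, rab35a and rab35b). Both members had the same sign in 5 of 6 pairs between regenerated and nonregenerated neurons, in 3 between regenerated and unlesioned and in 3 between nonregenerated and unlesioned neurons. rab11ba and rab11bb shared their sign in all 3 comparisons. Of the 7 genes with 2 probe sets, both probe sets had the same sign in 6 for regenerated minus nonregenerated neurons, in 3 for regenerated minus unlesioned and in 4 for nonregenerated minus unlesioned. The largest gap between the 2 probe sets of a gene was 0.89, for rab12. Duplicates and family members share sequence, and how far their probes separate them was not tested.

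Variation over the 9 arrays was close to that of other genes. The median SD over arrays was 0.353 for the 36 Rab genes and 0.377 for all 8793 genes. Within the family it ran from 0.124 for rab25a, an epithelial recycling Rab in mammals, to 1.06 for rab3c.

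Proteins that load, activate, switch off or read Rabs were covered by 46 measured genes. Between regenerated and nonregenerated neurons 1 of the 46 was lower and none higher by the test, against 2.96% of all genes called. An unadjusted p under 0.05 was reached by 9 of the 46 (19.6%), 3 higher and 6 lower, against 16.8% of all genes. The called gene was dennd4c, which in mammals encodes an exchange factor that activates Rab10. It read -1.69, -0.74 and -1.01 in regenerated arrays, 0.21, 0 and -0.08 in nonregenerated arrays and 0.05, 0.49 and 0.06 in unlesioned arrays. The regenerated arrays lay below all 6 others. The difference was -1.19 ± 0.26 from nonregenerated neurons (limma adjusted p = 0.0456) and -1.34 ± 0.26 from unlesioned neurons (limma adjusted p = 0.0320), and it was the single called gene of the 46 in each. In the second comparison that is 2.17% of the 46, where 2.26% of all genes were called. There 3 of the 46 (6.52%), 1 higher and 2 lower, reached an unadjusted p under 0.05, against 15.1% of all genes. The first call was lost in 16 of 21 alternatives and the second in 11. With the reading of the negative controls as a covariate the values were -0.61 and -0.79, and neither was called (limma adjusted p = 0.352 and 0.216). dennd4c read lowest in regenerated array 1, where the negative controls read highest (0.48). In regenerated array 2, where they read 0.04, dennd4c was still below the 6 arrays of the other groups. In regenerated array 3 the negative controls read 0.28 and dennd4c -1.01, both between the readings of the other regenerated arrays. Beyond the fit with the covariate, a link between these readings was not tested.

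The 17 effector and tether genes had a median of 0.09 in the first comparison, and none was called. rims2a, which encodes an active zone scaffold that binds Rab3, was singled out after its values were seen. It read 0.05, 0.28 and 1.20 in regenerated arrays, -0.83, -0.83 and -1.22 in nonregenerated arrays and 0, 0.27 and -1.17 in unlesioned arrays. Regenerated arrays lay above nonregenerated ones, at a difference of 1.47 ± 0.40 that did not pass (limma adjusted p = 0.0943), and they overlapped the unlesioned arrays (0.81 ± 0.40, limma adjusted p = 0.380). exoc6b, which encodes a subunit of the exocyst that tethers vesicles to the plasma membrane, had the lowest value of these genes and was also chosen after its values were seen. It read -0.09, -1.96 and 0.22 in regenerated arrays, 0.70, 0.58 and 0.54 in nonregenerated arrays and -0.75, 0 and -0.14 in unlesioned arrays. Regenerated arrays lay below the nonregenerated ones, with array 2 far below the other regenerated arrays, at a difference of -1.22 ± 0.49 that did not pass (limma adjusted p = 0.253). The regulators rab3gap1, rab3gap2 and rab3ip, left out of the family by name, differed by 0.22 ± 0.26, -0.08 ± 0.30 and 0.10 ± 0.46 between regenerated and nonregenerated neurons.

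The 11 GTPase activator genes had a median of 0.10, the 13 exchange factor genes one of 0.04 and the 5 genes of GDP dissociation inhibitors and prenylation one of -0.08 between regenerated and nonregenerated neurons. Of the 13 exchange factor genes, 7 lay above 0 and 6 below. An unadjusted p under 0.05 was reached by 4 (30.8%), all lower, against 16.8% of all genes, 8.45% lower. A difference of at least 1 was seen in 3 (23.1%), against 7.52%. Between regenerated and unlesioned neurons the same class lay near all genes. There 2 of the 13 (15.4%) reached an unadjusted p under 0.05, against 15.1% of all genes. A difference of at least 1 was seen there in 1 (7.69%), against 6.77%. Besides dennd4c, the 4 exchange factor genes lower than in nonregenerated neurons included dennd2b, named with its values known. It differed by -0.89 ± 0.26 from nonregenerated and -0.97 ± 0.26 from unlesioned neurons, not called (limma adjusted p = 0.113 and 0.102). tbc1d14, whose mammalian protein binds Rab11 and acts in autophagy, was also singled out after its values were seen. It read 0.56, 0.64 and 0.95 in regenerated arrays, against -0.26, 0.29 and -0.30 in nonregenerated and 0, -0.10 and -0.35 in unlesioned arrays. Regenerated arrays lay above all others, at 0.81 ± 0.22 and 0.87 ± 0.22, and neither difference was called (limma adjusted p = 0.0926 and 0.0895). Between nonregenerated and unlesioned neurons none of the 46 genes was called by limma, and 1 (2.17%), the effector gene micall2b, reached an unadjusted p under 0.05, against 5.39% of all genes.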

How the data were processed

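The deposited table holds log2 values for 15617 probe sets on 9 arrays. RMA was the authors' method for these values, as the submitters' processing notes name it, with no version stated there. Every probe set has a median of 0 over the 9 arrays, a centring that the labels do not describe. RNA was amplified and labelled with biotin, per the labels' protocols.

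The 115 control probe sets were left out. Of 15502 others, 10795 had 1 gene symbol, 135 several and 4572 none. Symbols were matched through gene identifiers to RefSeq (assembly GRCz12tu, names only), where all 36 Rab symbols were found. Probe sets of a gene were averaged. One limma model (limma 3.58.1, R 4.3.3) gave group means over all 9 arrays (6 residual and 3.54 prior degrees of freedom), with two-sided p-values adjusted over 8793 genes. The model was tested on simulated arrays, in which genes varied independently and with the same SD in each group. Differences between arrays in spread or in negative control readings were not simulated. Figures were drawn with matplotlib 3.10.9.

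Members, classes and lists were chosen with earlier results of these data known. The rule for named genes took called Rab genes, the highest and lowest of each class per comparison, and up to 4 called regulators per comparison. Other Rab genes, and the regulators rab3gap1, rab3gap2, rab3ip, rims2a, exoc6b, micall2b, dennd2b and tbc1d14, are named outside that rule, with values known. Alternatives were run for the genes of the rule and for rab11ba, rab11bb, rims2a and tbc1d14, and covered scaling, weights, moderation, covariates, probe set choice, thresholds and arrays left out. Genome positions and sequences were not used here. The number of arrays limits the precision.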

Additional observations from a re-analysis of the deposited data

How the results depend on the processing

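The count of 1 Rab gene called between regenerated and nonregenerated neurons ran from 0 to 1 with each array left out in turn. It was 0 without nonregenerated array 3. Regenerated arrays 1 and 3, which had the highest negative control readings, were also left out together. This left regenerated array 2, which holds the highest rab15 value (1.45). There rab15 differed by 1.80 and rab3c by 2.54. In that setting the 1 array left is assumed to vary like the other groups. Over all 21 alternatives rab3c ran from 1.97 to 2.86 (limma adjusted p from 0.00750 to 0.0509). The count of 0 between regenerated and unlesioned neurons was 1 at an adjusted p under 0.1 and ran from 0 to 1 over arrays left out, since rab3c passed without nonregenerated array 1 (limma adjusted p = 0.0475). The count of 0 between nonregenerated and unlesioned neurons held in 24 of 24 alternatives.

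Class medians were less stable. With arrays left out in turn, the secretory median ran from -0.15 to 0.44 for regenerated minus nonregenerated, from -0.09 to 0.23 for regenerated minus unlesioned and from -0.39 to 0.043 for nonregenerated minus unlesioned neurons. The recycling median ran from 0.047 (without regenerated array 2) to 0.24, from -0.20 to 0.12 and from -0.23 to -0.049, and the endosomal median from -0.13 to 0.10, from -0.16 to 0.09 and from -0.15 to 0.23. Without regenerated arrays 1 and 3 the secretory median was 0.33 against nonregenerated and 0.31 against unlesioned neurons. Centring arrays on the 75th percentile shifted the median of all genes by -0.12 and -0.11 in these comparisons, and the recycling medians then read 0.073 and -0.11.

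Alternatives were run for 37 gene results (1 gene in 1 comparison each), and the other single-gene values in the text have none. Of the 775 values these gave, 738 kept their direction and their side of the threshold, 28 lost a call (27 of them of dennd4c), 2 gained one and 7 changed sign. None of the 7 was called. rab28 turned between regenerated and nonregenerated neurons, to 0.078 after quantile normalization, 0.036 without nonregenerated array 2 and 0.18 without regenerated array 1, over a range of -0.71 to 0.18 with arrays left out. Between nonregenerated and unlesioned neurons rab12 turned to -0.092 without unlesioned array 2 and -0.089 without nonregenerated array 3 (range to 0.18), and rab35b to -0.093 without unlesioned array 2 and -0.16 without nonregenerated array 2 (range to 0.40). The causes were not tested.

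Over all genes, the 260 called between regenerated and nonregenerated neurons became 109 after quantile normalization and 136 with the negative control covariate. The 110 of 260 called higher compare with 87 of 295 when arrays were centred on the 75th percentile and 79 of 136 with the covariate. Replicate numbers do not mark a shared source in the labels. Deviations of same-numbered arrays from their group means correlated at over 0.1 in 2 of 9 pairings, and 5 of 9 arrays correlated best with their own number. These correlations ran from -0.19 to 0.26. Between arrays of different number and group they ran from -0.26 to 0.24, a similar range. With the replicate number as a block, rab3c kept its call at 2.21 (limma adjusted p = 0.0286) and the count of Rab genes called stayed at 1, 0 and 0, while dennd4c lost both calls (limma adjusted p = 0.0645 and 0.0516).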
